A study of Mus musculus with 18 samples.

Results

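The genes described here are 36 genes of S phase and DNA replication, taken by symbol from a fixed list. All 36 were found in both expression tables, which list 19780 genes for LSK and 18428 genes for CMP. All 36 also passed the filter on low values in every comparison. The samples were RNA-seq libraries of bone marrow cells from female mice. LSK cells (Lin-Sca-1+c-Kit+) hold the stem and multipotent progenitor cells of the marrow. CMP cells are common myeloid progenitors. LSK came from 4 groups of 3 samples each. F1-P were prediseased NZBW/F1 mice of 12 weeks, F1-L were NZBW/F1 mice of 28 to 36 weeks that had developed proteinuria, B6-Y were C57BL/6 mice of 12 weeks and B6-O were C57BL/6 mice of 28 to 36 weeks. CMP came from F1-P and F1-L only, with 3 samples each. The labels name no transgene and no agent for any group. NZBW/F1 hybrids come from an NZB by NZW cross and develop a lupus-like disease as they grow older, so disease and age cannot be told apart between F1-L and F1-P. Likewise, every difference between the 2 mouse lines enters a comparison of NZBW/F1 with C57BL/6. The study's legend for CMP gives a number per replicate without naming its unit, so each CMP sample may be a pool of mice. For LSK the number of mice in a sample is not given in the sources used here. The p-values therefore measure the spread between these samples.

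Chromosomal DNA is copied once per cell cycle. In G1 the origin recognition complex, Cdc6 and Cdt1 load the ring-shaped MCM helicase onto DNA. At the start of S phase Cdc45, the GINS complex and Mcm10 switch the helicase on, and polymerases, the Pcna clamp and its loader then copy both strands. E2F transcription factors and cyclin E drive this step, and many replication genes carry E2F sites in their promoters. Haematopoietic stem cells are mostly quiescent, whereas committed myeloid progenitors divide often, so the level of these transcripts is widely used as a sign of how many cells are in cycle. In a bulk sample, fewer cycling cells and less RNA per cycling cell cannot be told apart.

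Promoter sequences were searched for motifs, which the list did not use. RefSeq promoter windows (GRCm38.p6, from 250 bases before to 50 bases after a start site) were found for 31 of the 36 genes. Mcm4, Gins1, Gins2, Pole and Ccne2 had no entry. The E2F words TTTCGCGC, TTTGGCGC, TTTCCCGC and TTTGCCGC were searched on both strands. At least 1 of these words was in the windows of 12 of the 31 genes, or 38.7%, against 704 of 27025 genes with a window, or 2.6%. CCAAT, also searched on both strands, was in 19 of the 31 (61.3%), against 41.1% of all genes with a window. A word is a match of letters and not a measured binding site. Mcm7 and Lig1, both lower in F1-L than in B6-O LSK as described later, are shown by 30 bases around each word, with the word in capitals. The Mcm7 stretches lay at chr5:138172030-138172059 and chr5:138171849-138171878 (minus strand). Their words began 165 bases before the start site and at base 17 after it. The Lig1 stretch lay at chr7:13278841-13278870 (plus strand), with the word at base 27 after a start site. All 3 stretches overlap annotated exons, the first of them of both Mcm7 and its neighbour Ap4m1.
Mcm7, before the start: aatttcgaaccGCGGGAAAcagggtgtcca
Mcm7, after the start: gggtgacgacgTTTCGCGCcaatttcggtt
Lig1: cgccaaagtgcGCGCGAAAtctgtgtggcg

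The MCM subunit genes Mcm5 and Mcm6 were added to these after the search because a pair of words on opposite strands overlapped in each, upstream of the start site. The Mcm5 stretch is chr8:75109259-75109508 (plus strand), with words 153 and 149 bases before the start site. The Mcm6 stretch is chr1:128359706-128359955 (minus strand), with an overlapping pair 110 and 106 bases before the start site and a further word at 47 bases. Both stretches are the 250 bases before the start and overlap no annotated exon.
Mcm5: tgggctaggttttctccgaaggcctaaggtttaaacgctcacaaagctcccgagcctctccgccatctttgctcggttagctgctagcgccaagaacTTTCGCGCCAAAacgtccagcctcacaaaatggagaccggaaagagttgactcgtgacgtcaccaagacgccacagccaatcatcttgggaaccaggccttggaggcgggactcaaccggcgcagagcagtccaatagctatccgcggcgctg
Mcm6: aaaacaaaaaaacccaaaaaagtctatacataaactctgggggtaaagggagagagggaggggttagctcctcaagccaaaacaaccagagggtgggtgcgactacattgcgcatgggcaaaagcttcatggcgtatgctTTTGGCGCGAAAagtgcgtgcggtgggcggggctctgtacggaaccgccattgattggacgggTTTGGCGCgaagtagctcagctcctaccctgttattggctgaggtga

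The libraries held 23772252 to 28493747 reads in genes for LSK and 20001328 to 24761060 for CMP. Values are CPM, read counts relative to a library size that was scaled by the study's authors, and LSK and CMP were scaled separately. Immunoglobulin genes took 16.8 to 36.6% of the reads in NZBW/F1 LSK, 0.301 to 4.76% in C57BL/6 LSK and at most 0.255% in CMP. Kit, Cd34 and Flt3 were present in every library. Ly6a, which encodes Sca-1, was at 35.5 to 113 CPM in C57BL/6 LSK, 293 to 879 CPM in NZBW/F1 LSK and 1.14 to 6.70 CPM in CMP. The sort description lists Sca-1 as positive for CMP too.

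The MCM subunits Mcm3, Mcm5 and Mcm6 and the clamp Pcna had the highest levels per length of the 36 transcripts in every group. Per kilobase of exon, Pcna (72.8 ± 12.8 CPM per kb, SD, n = 3), Mcm6 (71.3 ± 14.3) and Mcm3 (57.4 ± 14.7) led in LSK from F1-P. Mcm6 (69.0 ± 4.27), Pcna (68.2 ± 3.64) and Mcm3 (57.0 ± 4.28) led in F1-L. The same genes led in both C57BL/6 groups, where Pcna reached 102 ± 18.9 CPM per kb in B6-Y and Mcm6 104 ± 13.0 in B6-O. Pcna and Mcm6 did not differ beyond their spread in any of the 4 groups. The lowest levels per length were those of Orc1, the largest subunit of the origin recognition complex, at 3.01 to 5.71 CPM per kb, and of Fen1, the flap nuclease of Okazaki fragments, at 1.75 to 1.83 CPM per kb. Fen1 rested on 65 to 172 reads per LSK library, and 84.2% of its exon length is shared with Tmem258 and Gm10143, so reads there may have been left uncounted or assigned to a neighbour. Shared exon length was also large for Gins2 (67.3%, with Gse1) and Chaf1a (52.5%, with Ubxn6), and pseudogenes named after Pcna and Tyms exist, so the levels of these genes are uncertain.

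In some groups a single library was the highest in most of the 36 genes. In LSK F1-P, replicate 1 was the highest of the 3 libraries in 32 of the 36 genes, against 38.4% of all genes, and replicate 2 was the lowest in 32. Tk1, thymidine kinase of the salvage pathway, went the other way, at 59.2, 104 and 84.4 CPM in replicates 1 to 3. In C57BL/6, B6-Y replicate 3 was highest in 27 genes, against 45.6% of all genes, and B6-O replicate 2 in 23, against 30.4%. In F1-L no library led, with replicates 1 to 3 highest in 8, 17 and 11 genes. The 36 genes averaged 6.19, 5.75 and 5.95 in F1-P as mean log2(CPM + 1), and 5.94, 6.00 and 5.96 in F1-L, so the F1-L libraries lay closest together.

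**Figure D1:**
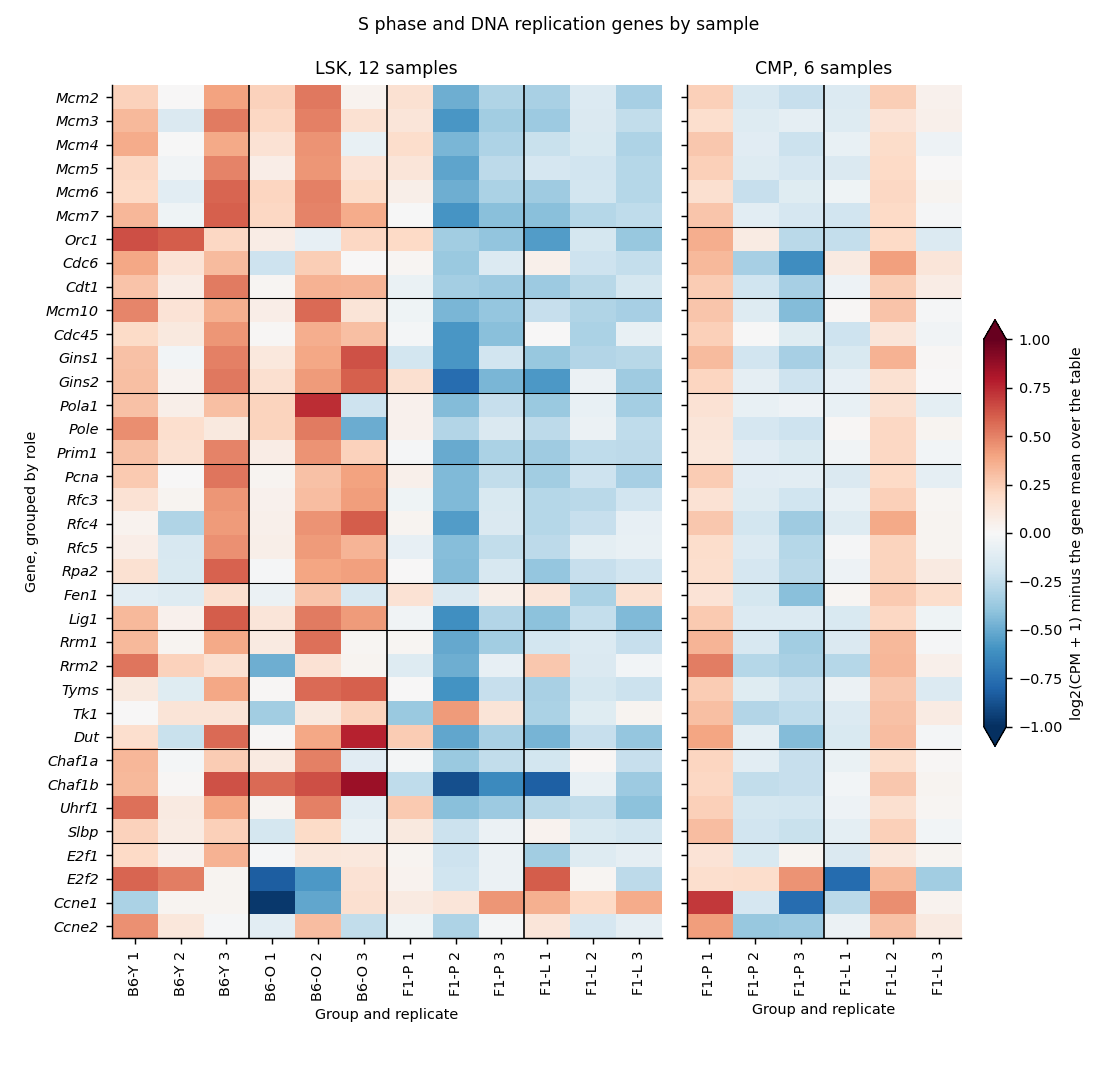
Each cell gives log2(CPM + 1) of a gene (rows, grouped by role) in a library (columns, by group and replicate), minus the mean of that gene over the 12 LSK or the 6 CMP libraries. Most genes are red (above the mean) in most C57BL/6 LSK libraries, near white in F1-P replicate 1 and blue (below the mean) in the other 5 NZBW/F1 LSK libraries, while E2f2, Ccne1, Tk1 and Fen1 follow other patterns.

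LSK from F1-L mice were compared with LSK from F1-P mice to ask whether replication transcripts differed with disease and age in NZBW/F1. With limma on log2(CPM + 1), 0 of the 36 genes passed an adjusted p of at most 0.05 with a fold above 1.5, and 0 had an unadjusted p below 0.05. Over all genes, 4 of 14332 passed, or 0.0279%, and 1830 had an unadjusted p below 0.05. The edgeR likelihood ratio test, edgeR quasi-likelihood test and DESeq2 on the recovered reads also called 0 of the 36. With the likelihood ratio test, 4.58% of all genes passed. The median log2 fold change of the 36 genes was -0.01, the same as that of all genes, with 17 genes higher and 19 lower. For 28 of the 36 genes the 95% interval lay within a 1.5-fold change in either direction, against 56.2% of all genes, and this held for all 6 MCM subunits. The 8 with wider intervals were Orc1, Cdc45, Gins2, Rrm2, Tk1, Dut, Chaf1b and E2f2.

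The named genes of this comparison moved little. Rrm2 (chr12:24708241-24714146), the regulated subunit of ribonucleotide reductase, was at 108, 80.5 and 87.7 CPM in F1-L and at 81.8, 63.5 and 84.3 CPM in F1-P. The groups overlapped, and the log2 difference was 0.26 (SE 0.16, limma adjusted p = 0.547), the highest of the 36. Cdc45 (chr16:18780447-18811987) was at 40.5, 32.2 and 38.2 CPM in F1-L against 39.7, 26.6 and 29.9 CPM in F1-P, a difference of 0.21 on the log2 scale (SE 0.17, limma adjusted p = 0.677). E2f1 (chr2:154559407-154569892), an activating E2F factor, was at 49.3, 57.8 and 59.3 CPM against 64.4, 54.6 and 60.4 CPM (log2 difference -0.11, SE 0.11, limma adjusted p = 0.765). Tk1 (chr11:117815526-117826092) had the lowest difference, with 61.5, 70.6 and 78.7 CPM in F1-L and a log2 value of -0.20 (SE 0.21, limma adjusted p = 0.766). Samples of both groups overlapped for each of the 36 genes. Over all 14332 genes, the groups did not overlap in 1491 that were higher in F1-L and 1045 that were lower. In the likelihood ratio test, 494 of the 657 genes called were higher in F1-L, none of them among the 36. Leaving out F1-P replicates 2 and 3 together moved the median of the 36 genes to -0.23, so the level of the F1-P group depended on which of its libraries were used.

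Age in C57BL/6 was examined in the same way. Between B6-O and B6-Y LSK, 0 of the 36 genes passed the thresholds, as did 0.0% of the 14005 genes tested. At an unadjusted p below 0.05, 927 of all genes and 1 of the 36 were found. edgeR's quasi-likelihood test, its likelihood ratio test and DESeq2 called 0 of the 36, and 0, 114 and 207 of all genes. The median log2 fold change of the 36 genes was -0.02. E2f2 (chr4:136172394-136196057), an activating E2F factor, was at 31.5, 37.7 and 62.7 CPM in B6-O and at 85.1, 81.0 and 57.9 CPM in B6-Y. Its log2 difference was -0.79 (SE 0.28, unadjusted p = 0.0224, limma adjusted p = 0.596), and B6-O replicate 3 overlapped B6-Y. Orc1 was at 14.6, 13.0 and 16.1 CPM against 22.1, 21.4 and 16.03 CPM, with a log2 difference of -0.42 (SE 0.19, limma adjusted p = 0.804), and Rrm2 had one of -0.41 (SE 0.20, limma adjusted p = 0.816). For Rrm2 all B6-O samples, at 63.4, 98.9 and 90.97 CPM, lay below those of B6-Y, at 130, 105 and 99.3 CPM. Chaf1b had the highest value, at 0.37 (SE 0.19, limma adjusted p = 0.823). For 19 of the 36 genes the interval lay within 1.5-fold, against 30.6% of all genes, so changes beyond 1.5-fold with age are within the intervals of the rest.

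**Figure D2:**
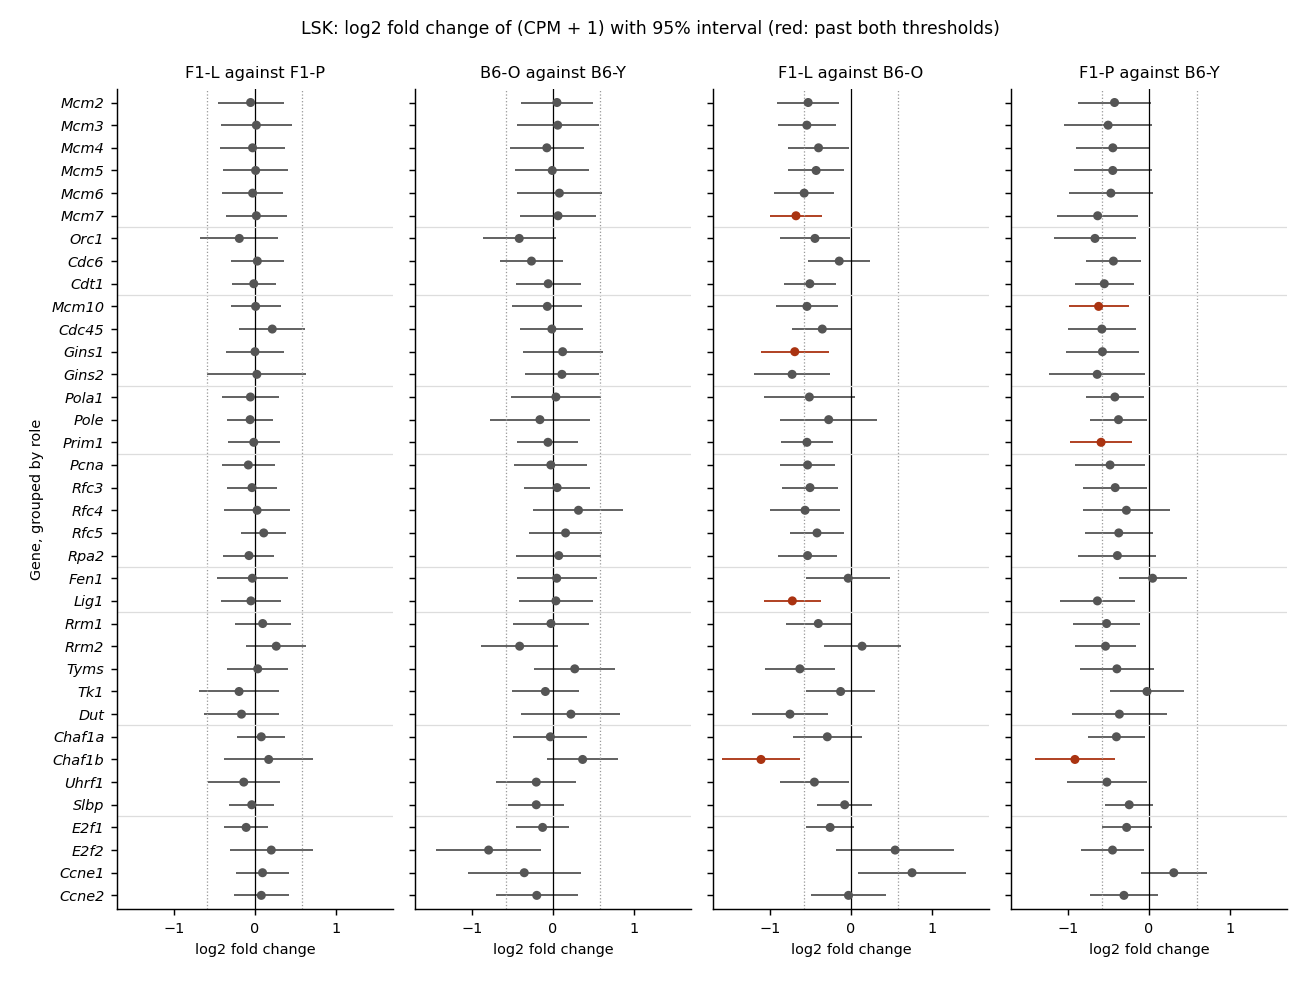
Points give the limma log2 fold change of CPM + 1 for each gene in 4 LSK comparisons and lines its 95% interval, with dotted lines at a 1.5-fold change. Red marks the 4 genes past both thresholds for F1-L against B6-O and the 3 for F1-P against B6-Y, all lower in NZBW/F1, and the first 2 panels hold none.

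F1-L LSK were then set against C57BL/6 LSK of the same age. Of the 36 genes, 33 had a lower mean log2 level than in B6-O, against 52.4% of all genes. The median log2 fold change was -0.48, against -0.03 over all genes. Past both thresholds, 4 genes were lower and 0 higher. Over all 14381 genes, 11.6% passed, and 3.75% passed as lower. At an unadjusted p below 0.05, 23 of the 36 were lower, against 12.7% of all genes. All F1-L samples lay below all B6-O samples in 25 of the 36, against 20.0% of all genes.

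No role held more than 1 of the 4 calls. All 6 MCM subunits were below B6-O in every sample, with log2 differences of -0.68 to -0.40. Mcm7 passed the thresholds. It lies at chr5:138164583-138172422 and was at 172, 189 and 193 CPM in F1-L against 266, 326 and 298 CPM in B6-O (log2 difference -0.68, SE 0.14, limma adjusted p = 0.0211). In the loading step, Cdt1 (-0.51) and Orc1 (-0.44) lay below B6-O in every sample, while Cdc6 (-0.15) overlapped. Among the activators of the helicase, the GINS subunit Gins1 (chr2:150905400-150931280) passed, with 15.6, 16.6 and 16.9 CPM in F1-L against 22.3, 27.4 and 32.6 CPM in B6-O (log2 difference -0.69, SE 0.18, limma adjusted p = 0.0487). This call was lost in each of the 6 fits that left out 1 library. Gins2, Mcm10 and Cdc45 had values of -0.73, -0.54 and -0.35 and did not pass, though no sample overlapped. Of the polymerase and primase genes, Prim1, the catalytic primase subunit, had a limma adjusted p of 0.0437 with a log2 difference of -0.54, short of a 1.5-fold change. Pola1 (-0.51) and Pole (-0.28) overlapped between groups.

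The genes that act behind the fork gave the other calls. Pcna, the loader subunits Rfc3, Rfc4 and Rfc5 and the single-strand binding protein Rpa2 had log2 differences of -0.57 to -0.42, and all 5 lay below B6-O in every sample without passing. Lig1 (chr7:13277283-13311433), the ligase that joins Okazaki fragments, passed. It was at 122, 138 and 119 CPM in F1-L against 177, 234 and 218 CPM in B6-O (log2 difference -0.72, SE 0.15, limma adjusted p = 0.023). Chaf1b (chr16:93883901-93906115), a subunit of the chromatin assembly factor that places histones on new DNA, had the lowest value of the 36. It was at 32.4, 55.0 and 44.8 CPM in F1-L against 86.4, 91.01 and 106 CPM in B6-O, a log2 difference of -1.11 (SE 0.20, limma adjusted p = 0.0148). Its partner Chaf1a differed by -0.29, with overlapping samples. Uhrf1, which maintains DNA methylation on new strands, differed by -0.45, and Slbp, which binds histone messenger RNA, by -0.08.

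Nucleotide supply was divided. Dut, Tyms and Rrm1 had log2 differences of -0.75, -0.63 and -0.40 and did not overlap with B6-O, and their limma adjusted p-values were 0.0546, 0.0697 and 0.18. Rrm2 and Tk1, by contrast, had values of 0.14 and -0.13 and overlapped. None of the G1/S regulators passed. Ccne1 (chr7:38097984-38107534), which encodes cyclin E1, had the highest value of the 36, with 24.4, 21.8 and 24.7 CPM in F1-L against 9.18, 12.8 and 21.2 CPM in B6-O (log2 difference 0.75, SE 0.29, limma adjusted p = 0.141). All 3 F1-L samples were above all B6-O samples, but B6-O replicate 3 lay close to them. Without B6-O replicate 3 the log2 difference of Ccne1 was 1.05 (limma adjusted p = 0.0102). Leaving out the B6-O sample nearest to F1-L favours a difference, so this fit does not replace the one on all samples. E2f2 (0.54) and Ccne2 (-0.03) overlapped, and E2f1 (-0.26) lay below B6-O in every sample.

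The number of the 36 genes called depended on the test and on single libraries, whereas the sign of the median did not. The study's own kind of test, edgeR's likelihood ratio, called 10 of the 36 on the recovered reads, against 15.2% of all genes. The quasi-likelihood test of edgeR called 8 and DESeq2 7, against 1552 and 2292 of all 14381 genes. Leaving out 1 library gave 0 calls without B6-O replicate 2 or F1-L replicate 3, against 799 of 14171 and 448 of 13885 genes. It gave 1 call without F1-L replicate 1 or 2, against 582 of 13879 and 594 of 13853 genes. Without B6-O replicate 1 there were 4, against 806 of 14150 genes. Without B6-O replicate 3 there were 9, against 2285 of 14116 genes. The median log2 fold change stayed between -0.53 and -0.37 in these 6 fits.

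The comparison of prediseased mice with young C57BL/6 mice uses none of the same samples. Of the 36 genes, 34 had a lower mean log2 level in F1-P than in B6-Y, against 54.7% of all genes, and the median log2 fold change was -0.45, against -0.04 over all genes. At an unadjusted p below 0.05, 20 of the 36 were lower, against 15.1% of all genes, and in 17 all F1-P samples lay below all B6-Y samples, against 18.1% of all genes. Past both thresholds there were 3 lower genes, which is near the background: over all 14380 genes 16.2% passed, and 6.18% passed as lower.

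Chaf1b was again the lowest, at 48.6, 31.0 and 36.9 CPM in F1-P against 72.8, 58.4 and 90.7 CPM in B6-Y (log2 difference -0.91, SE 0.21, limma adjusted p = 0.0236). With limma it was the only gene of the 36 to pass in both comparisons with C57BL/6. With DESeq2, Mcm7 (adjusted p = 0.000217 for F1-L against B6-O and 0.0325 for F1-P against B6-Y) and Lig1 (0.000624 and 0.0233) also passed in both. Mcm10 (chr2:4989714-5012791), which helps to start the helicase, was at 46.0, 34.4 and 36.3 CPM against 67.2, 52.4 and 61.1 CPM (log2 difference -0.62, SE 0.16, limma adjusted p = 0.0347). Prim1 (chr10:128015168-128030037) was at 66.8, 47.3 and 54.1 CPM against 82.7, 75.2 and 95.8 CPM (log2 difference -0.59, SE 0.16, limma adjusted p = 0.0441). For these 3 genes no F1-P sample reached the lowest B6-Y sample.

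Most other members had lower means in F1-P. The MCM subunits ranged from -0.63 to -0.43, and F1-P replicate 1 overlapped B6-Y in each of the 6. The loading genes Orc1, Cdt1 and Cdc6 had values of -0.67, -0.55 and -0.44 without overlap. Lig1 and Rrm2 had values of -0.64 and -0.54, also without overlap, and did not pass. Only Ccne1, at 20.1, 20.6 and 25.9 CPM against 14.9, 19.2 and 19.2 CPM (log2 difference 0.31, SE 0.18, limma adjusted p = 0.288), and Fen1 (0.04) were higher in F1-P. The likelihood ratio test called 2 of the 36, against 19.1% of all genes. The quasi-likelihood test called 2 and DESeq2 5, against 2280 and 2816 of all 14380 genes. Without F1-P replicate 1 the limma count was 12, against 2229 of 13901 genes. It was 5 without B6-Y replicate 2, against 2038 of 14011 genes, and 1 without B6-Y replicate 3, against 1938 of 14152. It was 0 without B6-Y replicate 1, F1-P replicate 2 or F1-P replicate 3, against 1285 of 14085, 927 of 13852 and 1150 of 13852 genes.

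**Figure D3:**
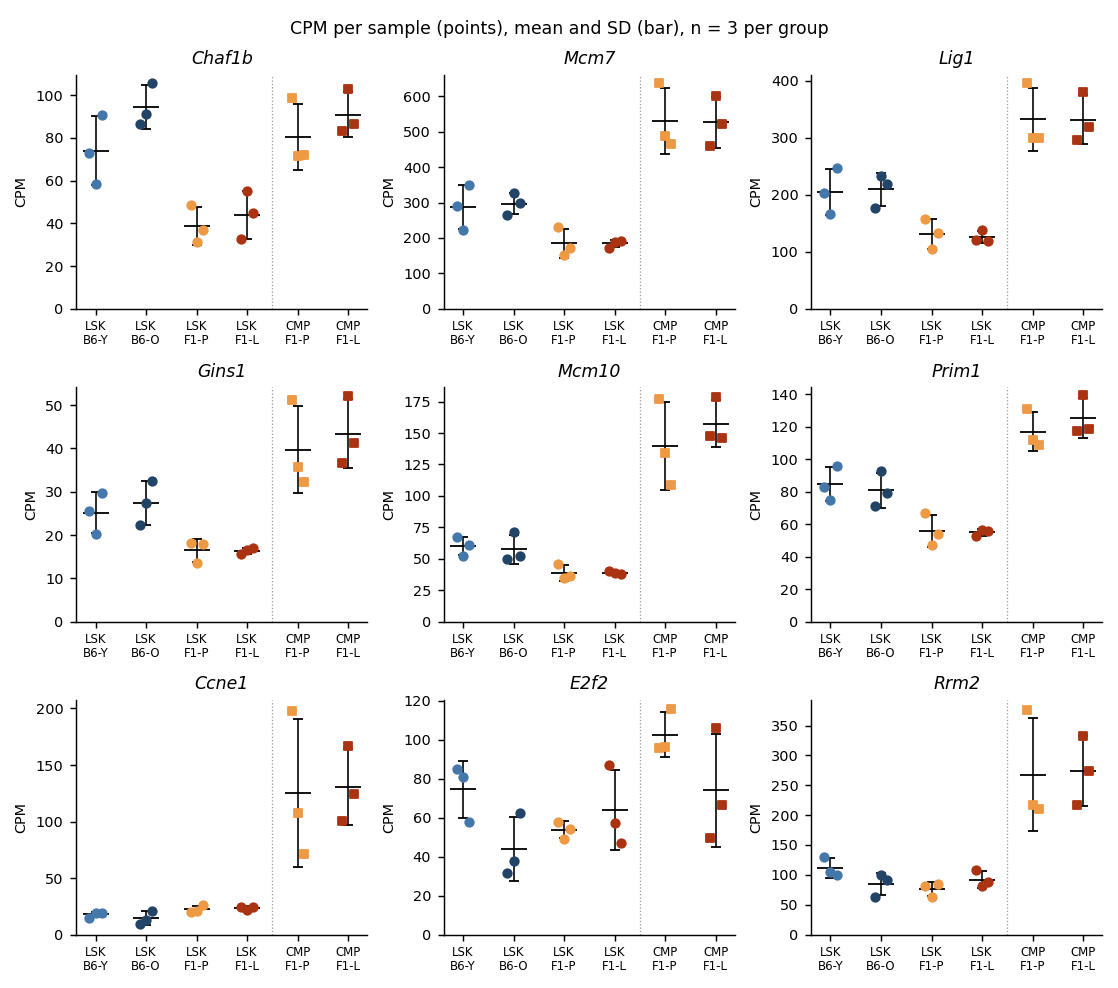
CPM per library (points; circles LSK, squares CMP) with the mean and SD (bars, n = 3) for the 6 genes past the thresholds in a comparison with C57BL/6 and for Ccne1, E2f2 and Rrm2. In LSK, F1-L samples of Chaf1b, Mcm7, Lig1, Gins1, Mcm10 and Prim1 lie below all B6-O samples, while those of Ccne1 lie above them.

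Other genes of the same pathways were counted as well. Of all genes, 3.75% passed as lower in F1-L than in B6-O and 6.18% in F1-P than in B6-Y, which is the background for the counts that follow. Of 40 other replication genes, 5 passed as lower in each comparison, with median log2 fold changes of -0.31 and -0.34. Rnaseh2b, a subunit of a nuclease that removes RNA from DNA, was at 27.98 against 52.0 CPM on average (log2 difference -0.86, limma adjusted p = 0.0249) and the clamp loader subunit Rfc2 at 129 against 224 CPM (-0.77, limma adjusted p = 0.0258) for F1-L against B6-O. Pold1, the catalytic subunit of polymerase delta, also passed there (-0.67). For F1-P against B6-Y the calls included Wdhd1, a replisome adaptor (-0.85), the polymerase epsilon subunit Pole2 (-0.69), Pold1 (-0.72) and Rnaseh2b (-0.66). Of 18 genes of the E2F family and S phase entry, 0 passed in the first comparison and 2 in the second, namely E2f8, a repressor E2F (-0.95, limma adjusted p = 0.0137), and cyclin A2 gene Ccna2 (-0.66, limma adjusted p = 0.0172).

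Checkpoint genes act at stalled forks and mitotic genes in cell division. The single calls for F1-L against B6-O in these lists are near the background of 3.75%. Of 23 genes of the replication stress checkpoint, 1 passed as lower in F1-L than in B6-O (Timeless, a fork protection factor, -0.81) and 5 in F1-P than in B6-Y. Timeless (-0.89), the Fanconi anaemia genes Fancd2 (-0.92) and Fanci (-0.68) and the checkpoint mediator Clspn (-0.76) were among the latter. Of 21 mitotic genes, all 21 had lower means in both comparisons. Ccnb2 alone passed for F1-L against B6-O (-0.78), and 7 passed for F1-P against B6-Y, among them the spindle motor Kif11, at 95.4 against 205 CPM on average (-1.10, limma adjusted p = 0.00499), Kif20a (-0.77), Cenpe (-0.85) and the mitotic activator Foxm1 (-0.63). The medians of the mitotic list were -0.45 and -0.62.

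Markers of other cells moved between the same groups. The summed CPM of 8 plasma cell markers was 252.8 to 2529 in C57BL/6 LSK, 9742 to 13040 in F1-L and 14630 to 37900 in F1-P, and none of the 8 was at 0. Of these 8 markers 7 passed as higher in F1-L than in B6-O and 8 in F1-P than in B6-Y. Over all genes, 1128 of 14381 and 1442 of 14380 passed as higher in these comparisons. Within F1-P, replicate 1, which was highest in the replication genes, had the lowest plasma cell sum (14630) and replicate 2, the lowest in the replication genes, had the highest (37900). The sum of the B cell and precursor markers was highest in replicate 1, at 1832, 916.2 and 596.7 CPM in F1-P replicates 1 to 3. It was 354.9 to 434.9 in F1-L, 1108 to 1451 in B6-Y and 657.3 to 956.4 in B6-O. Dntt made up most of the sum in F1-P replicate 1, at 1375 CPM, against 463.8 and 290.4 in replicates 2 and 3. Cd79a (97.3, 146 and 120 CPM), Cd79b (66.7, 130 and 104) and Ms4a1 (9.77, 34.3 and 23.6) were instead lowest in replicate 1. The other markers of this list were highest there. All 9 B cell and precursor markers had lower means in F1-L than in F1-P (median log2 difference -1.43, 0 passed with limma). Erythroid markers summed to 2915 CPM in F1-P replicate 3 and to 56.31 to 664.4 in the other LSK libraries, and myeloid progenitor markers to 446.9 to 1914 in F1-P, 948.0 to 2450 in F1-L, 874.2 to 994.8 in B6-Y and 779.5 to 1369 in B6-O. Of 11 stem and progenitor markers, 3 passed as lower in F1-L than in B6-O and 4 in F1-P than in B6-Y, with medians of -0.37 and -0.49, while Ly6a passed as higher. Of 6 T and NK cell markers, 3 and 4 passed as higher. Mature neutrophil markers summed to 1983 to 12370 CPM in F1-L, 301.1 to 1281 in F1-P, 485.4 to 5441 in B6-Y and 831.6 to 10720 in B6-O. All 11 of them had higher means in F1-L than in F1-P, with a median log2 difference of 3.00, and 0 passed with limma and 11 with the likelihood ratio test. The part of these other cells in the differences was not tested, nor was that of aligning NZBW/F1 reads to the C57BL/6 reference. The 36 genes together took a share of the reads outside immunoglobulin genes of 0.369 to 0.402% in F1-L and 0.471 to 0.606% in B6-O, which did not overlap. In F1-P the share was 0.309 to 0.448% and in B6-Y 0.443 to 0.579%, which overlapped through F1-P replicate 1. Scaling without immunoglobulin genes left medians of -0.43 and -0.41. Other transcripts of plasma cells stayed in that scaling and in these shares.

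**Figure D4:**
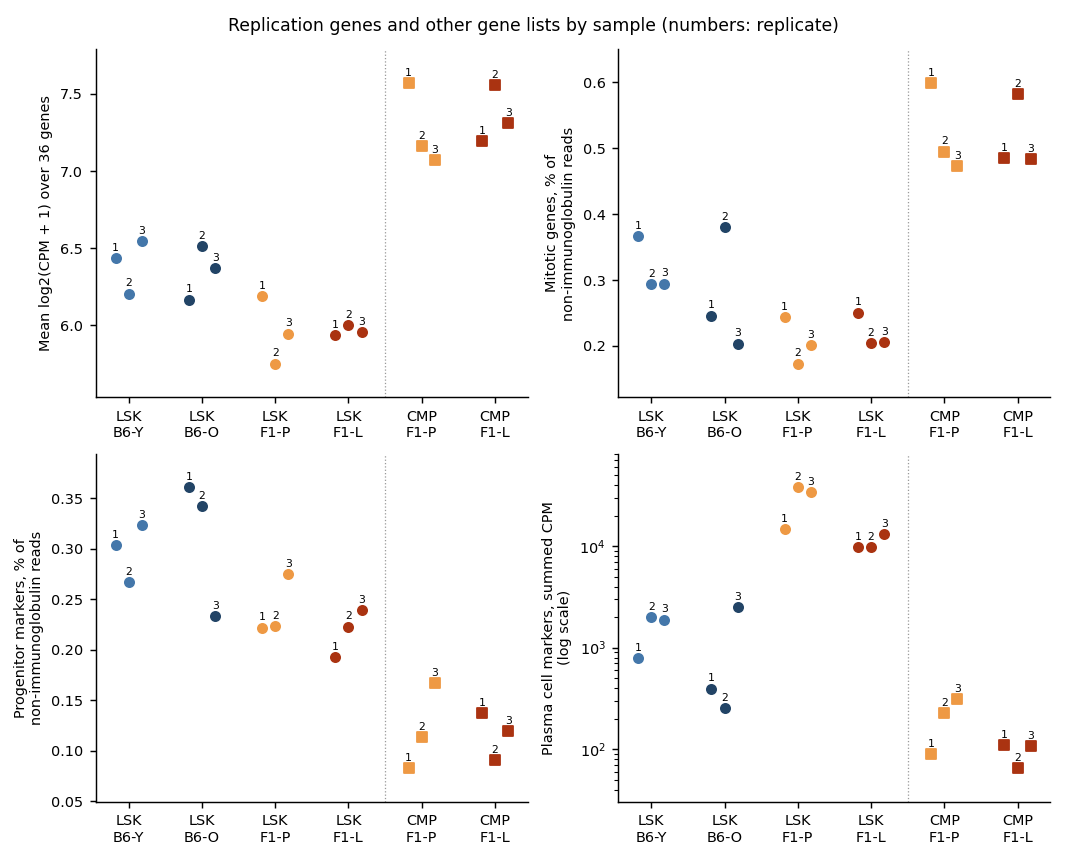
Each point is a library (numbers give the replicate), by group, for the mean log2(CPM + 1) of the 36 genes, mitotic genes and progenitor markers as a percentage of reads outside immunoglobulin genes, and the summed CPM of plasma cell markers on a log axis. In LSK the plasma cell sums of NZBW/F1 (9742 to 37900 CPM) lie above those of C57BL/6 (252.8 to 2529), and LSK and CMP were scaled separately.

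The step from the younger to the older group did not differ detectably between the mouse lines. In NZBW/F1 this step holds disease as well as age. An interaction term over all 12 LSK samples called 0 of the 36 genes and 0.0% of the 15084 genes tested. Its interval lay within a 1.5-fold change for only 8 of the 36 genes, against 17.7% of all genes. For the rest, differences between the lines beyond 1.5-fold are within the intervals, so the lack of calls does not show similarity. The quasi-likelihood test called 0 of all genes, the likelihood ratio test 10 and DESeq2 29, with none of the 36 in any, and 591 of all genes and 2 of the 36 had an unadjusted p below 0.05. Those were E2f2 (interaction 0.99 on the log2 scale, SE 0.38, unadjusted p = 0.0229, limma adjusted p = 0.976) and Rrm2 (0.67, SE 0.27, unadjusted p = 0.0282, limma adjusted p = 0.976). Both had lower means in B6-O than in B6-Y and higher means in F1-L than in F1-P. By p, Cdc6 came next with an interaction of 0.29 (SE 0.22), though Ccne1 had a larger one of 0.45 (SE 0.34), and Dut had the lowest, -0.39 (SE 0.35), each with a limma adjusted p of 0.976.

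CMP were compared between F1-L and F1-P only. None of the 36 genes passed, and 0 had an unadjusted p below 0.05. Over all 12926 genes, 1 passed, or 0.00774%, and 1267 had an unadjusted p below 0.05. Both edgeR tests and DESeq2 also called 0 of the 36, with 2.38% of all genes called by the likelihood ratio test. The median log2 fold change was 0.09, against 0.04 over all genes, and 29 of the 36 were higher in F1-L, as were 7499 of all 12926 genes. The sign of the median rested on single libraries: it was -0.01 without F1-L replicate 2 and 0.24 without F1-P replicate 1. For 22 of the 36 genes, among them all MCM subunits and all polymerase and primase genes, the interval lay within 1.5-fold, against 52.8% of all genes.

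E2f2 had the lowest value in CMP, with 49.4, 106 and 66.4 CPM in F1-L against 95.7, 96.2 and 116 CPM in F1-P (log2 difference -0.53, SE 0.27, limma adjusted p = 0.573). Cdc6 (chr11:98907801-98923940), the loading factor, had the highest, with 198, 248 and 203 CPM against 233, 148 and 121 CPM (0.42, SE 0.24, limma adjusted p = 0.617). Fen1 was at 11.3, 13.6 and 12.7 CPM against 12.3, 9.75 and 8.11 CPM (0.30, SE 0.18, limma adjusted p = 0.625). In each of the 3 the groups overlapped. One library per group stood above the rest of its group. F1-L replicate 2 was the highest of its 3 libraries in 36 of the 36 genes, against 41.4% of all genes, and F1-P replicate 1 in 35, against 44.4%. Ccne1 spread widely in F1-P, at 198, 108 and 70.9 CPM. The mature neutrophil markers summed to 314.6 CPM in F1-P replicate 1, 6453 in replicate 2 and 8442 in replicate 3, and to 64.16 to 431.3 CPM in F1-L. The 2 libraries with the highest replication genes also had the highest erythroid sums, at 3729 CPM in F1-P replicate 1 against 2661 and 2404, and at 4249 CPM in F1-L replicate 2 against 2678 and 3027. They had the lowest myeloid progenitor sums, at 2008 CPM against 3968 and 5721 in F1-P, and at 1509 CPM against 3304 and 4936 in F1-L. The part of these markers in the CMP values was not tested.

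CMP and LSK values of the same genes are given side by side without a test, since the 2 tables were scaled separately. The ratio of the CMP mean to the LSK mean of CPM was above 1 for 36 of the 36 genes in both F1-P and F1-L, with medians of 2.50 and 2.67, against 1.09 and 1.10 over all genes with values in both. Ratios were above 2 for 31 genes in F1-P and 32 in F1-L. Cyclin E1 had the largest ratio. Ccne1 averaged 126 ± 65.3 CPM in CMP and 22.2 ± 3.21 CPM in LSK of F1-P, and 131 ± 33.9 and 23.6 ± 1.61 CPM in F1-L (SD, n = 3), ratios of 5.65 and 5.52. The loading and activation factors Cdc6 (3.84 and 4.88), Orc1 (3.77 and 4.05) and Mcm10 (3.60 and 4.06) followed. The smallest ratios included those of the E2F genes, with 1.44 and 1.54 for E2f1 and 1.91 and 1.16 for E2f2, together with Rfc3 (1.56 and 1.76) and Tk1 (1.53 and 1.99). Mitotic genes took 0.473 to 0.599% of reads outside immunoglobulin genes in CMP and 0.173 to 0.251% in LSK of NZBW/F1.

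**Figure D5:**
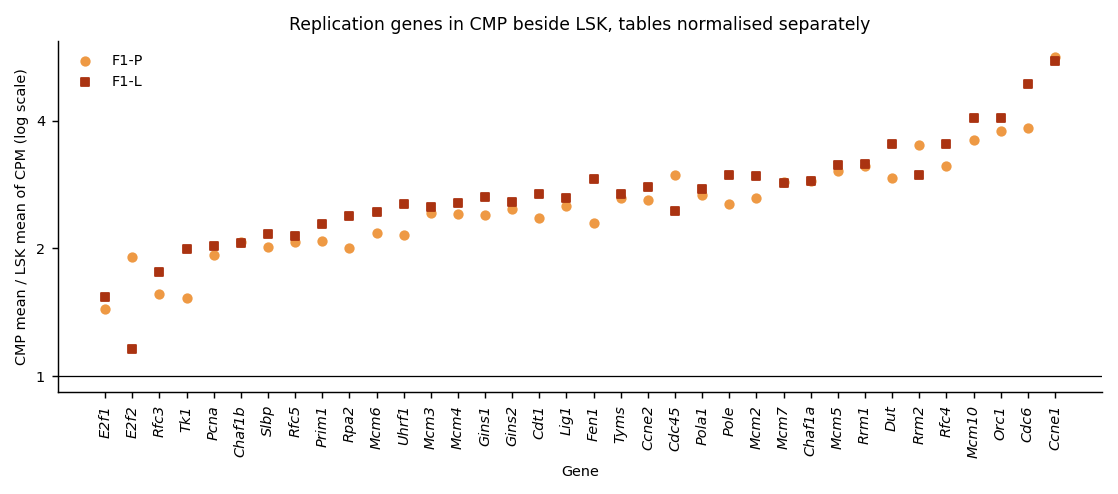
The ratio of the mean CPM in CMP to that in LSK (log axis) for each gene, ordered by the mean of both ratios, in F1-P (circles) and F1-L (squares). All 36 genes lie above 1 in both stages, from 1.16 for E2f2 to 5.65 for Ccne1.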

How the data were processed

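RNA-seq of sorted LSK (12 samples) and CMP (6 samples) was analysed in 6 groups of 3. As the methods state, TruSeq v2 libraries, which do not mark strand, were sequenced from single ends, aligned to mm10 with STAR 2.6, counted with HTSeq and tested with edgeR. The deposited signal values are gene counts divided by a scaled library size, which the authors call CPM, with column sums of 832403 to 1387186 in LSK. The planned design assumed plain CPM, and its test on the log2 scale was kept. Whole reads were recovered for 100.0% of values within 0.01 reads. The 36 genes and all lists were chosen with earlier results of these data known.

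Genes at 1 CPM or more in at least 3 of the samples fitted were tested on log2(CPM + 1) with limma 3.58.1 (trended empirical Bayes, Benjamini-Hochberg adjustment over all genes). Each pair comparison was fitted on its own 6 samples and the interaction on all 12 LSK samples. A gene was called at an adjusted p up to 0.05 with more than a 1.5-fold change. The pseudocount makes fold changes of low genes too small. edgeR 4.0.16 and DESeq2 1.42.0 were run on the recovered reads, after testing on simulated data. Named genes were those past the thresholds (at most 6), or the 3 with the smallest p, plus the highest and lowest, and for other lists at most 4 that passed. A gene of the other lists that this rule named is not reported here. Replicates differed by more than sampling noise. Same-numbered samples did not consistently deviate together. Gene positions are from GENCODE M21 (GRCm38), and promoter sequences from RefSeq. No deposited sample column was left unused.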

Additional observations from a re-analysis of the deposited data

How the results depend on the processing

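Members of the replication list called were 0 under every alternative for F1-L against F1-P, B6-O against B6-Y, the interaction and CMP. For F1-L against B6-O the 4 genes became 8 with edgeR's quasi-likelihood test, 10 with its likelihood ratio test and 7 with DESeq2, and 0 to 9 when 1 library was left out. For F1-P against B6-Y the 3 became 5 with DESeq2, 6 with all 12 LSK samples in the fit, 6 with the replicate block, 1 with scaling factors computed without immunoglobulin genes, and 0 to 12 with 1 library left out. Medians of the 36 genes without 1 library ran from -0.13 to 0.12 (F1-L against F1-P), -0.13 to 0.08 (B6-O against B6-Y), -0.53 to -0.37 (F1-L against B6-O), -0.60 to -0.33 (F1-P against B6-Y), -0.12 to 0.15 (interaction) and -0.01 to 0.24 (CMP).

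The counts over all genes also moved. F1-L against F1-P gave 4, but 26 with all 12 samples, 657 with the likelihood ratio test, 734 with DESeq2, and 0 to 25 without 1 library. B6-O against B6-Y gave 0, but 1 with either rescaling, 15 with all 12 samples, 114 and 207 with the likelihood ratio test and DESeq2, and 0 to 48 without 1 library. F1-L against B6-O gave 1667, but 1552 with the quasi-likelihood test, 2193 with the likelihood ratio test and 2292 with DESeq2. It ran from 448 to 2285 without 1 library. F1-P against B6-Y gave 2331, but 2280, 2750 and 2816 with those tests in that order, and 2364 with all 12 samples. It gave 2308 with scaling factors computed without immunoglobulin genes, and 927 to 2229 without 1 library. The interaction gave 10 and 29 with the likelihood ratio test and DESeq2, and 0 to 1 without 1 library. CMP gave 308 and 351 with those tests, and 0 to 434 without 1 library, the highest without F1-P replicate 1.

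Samples of the same replicate number did not consistently deviate together. Of 15 same-number correlations of deviations, from -0.45 to 0.62, 5 were above 0.1, and in 0 of 5 comparisons were all. For F1-P against B6-Y they were 0.33, 0.32 and 0.07. A replicate block gave 0 genes called for F1-L against F1-P and 0 in CMP. With the block the calls went from 1667 to 1380 for F1-L against B6-O and from 2331 to 2787 for F1-P against B6-Y.

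One alternative was chosen after seeing the data. Without both F1-P samples 2 and 3, the lone sample is assumed to vary like the others. F1-L against F1-P then gave 0 genes and a median of -0.23, with Cdc45 at -0.11 and Tk1 at 0.24 on the log2 scale. F1-P against B6-Y gave 271 genes, 0 of the 36 and a median of -0.21, and the interaction a median of -0.23. In CMP it gave 0 genes, a median of -0.19 and Cdc6 at -0.11. The cause was not tested. For single named genes, 346 of 392 values kept their direction and side of the thresholds, 42 kept the direction only, 1 passed newly and 3, given above, changed sign.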
